A study of Mus musculus with 6 samples.

Results

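Cytosolic ribosomal protein genes encode the protein subunits of the ribosome that translates nuclear mRNAs, and 82 of the 48321 gene names in the deposited table belong to this family by their symbols. They were chosen by name alone (Rpl or Rps with a number and at most the letter A, X or L, plus Rplp0, Rplp1, Rplp2 and Rpsa). Of the 82 members, 50 belong to the large and 32 to the small subunit, and 80 were annotated as protein-coding and 2 (Rpl6l and Rps4l) as processed pseudogenes in GENCODE M21. Names that end in a pseudogene suffix were left out of the family and are treated here as copies.

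The islets came from C57BL6 mice that the labels give as wild type (WT) in both groups. One group was on a high-fat diet (HFD; 60% of kcal from fat) for 4 months from an age of 3 months, and the other was on normal chow. The table holds 3 HFD and 3 chow columns, but the column of chow replicate 2 equals the mean of chow replicates 1 and 3 in 48321 of 48321 names, so 3 HFD and 2 chow libraries were used. Values are read counts scaled to the depth of each library (CPM), after the 1 added to each was taken off. For the chow mice the labels give no age and no feeding time. The labels also give no sex, no number of animals per sample and no statement that samples came from separate animals. The p-values therefore rest on a spread between samples that may be technical only.

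A ribosome holds each of its proteins in a nearly fixed number, so their mRNAs are usually made in similar amounts. Most of these mRNAs start with a terminal oligopyrimidine tract (TOP), a run of C and T bases through which the kinase complex mTORC1 and the protein Larp1 control their translation. Ribosomal protein genes have also left many processed pseudogenes in mammalian genomes, intron-less copies of their mRNAs, some of which differ from the parent by very few bases. In islets the ribosome serves the large output of insulin in beta cells.

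The copies matter for every value below, because a short read from a stretch that parent and copy share can be assigned to either. Here a copy is a GENCODE M21 gene outside the member's locus that holds at least 20% of the 31-base words of its coding sequence and is annotated as a pseudogene or spans at most 2000 bases. Members were not taken as copies of each other, the pseudogene-type members Rpl6l and Rps4l included. The table held rows for 552 such copies of 75 members. Of the 80 protein-coding members, 31 had no 31-base word of their coding sequence that was absent from every other gene. The following stretches of 90 coding bases, 5′ to 3′ and on the strand of the gene, are shown because the own rows of these members held only between 0.921% and 50.4% of the CPM of member and copies together. Capitals mark the bases that differ between the 2 sequences of a pair, and both come from GENCODE M21 transcripts on GRCm38, which may not be the build the authors used.
Rpl10a (plus strand, chr17:28328471-28331033): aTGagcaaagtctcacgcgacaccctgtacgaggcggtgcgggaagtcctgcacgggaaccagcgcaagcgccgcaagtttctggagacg
Rpl10a-ps1 (minus strand, chr1:64993951-64994604): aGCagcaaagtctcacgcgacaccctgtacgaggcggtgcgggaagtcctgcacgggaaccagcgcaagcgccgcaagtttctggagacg
Rps20 (minus strand, chr4:3831334-3835665): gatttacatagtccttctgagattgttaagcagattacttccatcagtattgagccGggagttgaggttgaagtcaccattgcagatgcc
Gm4332 (plus strand, chr3:119709516-119709861): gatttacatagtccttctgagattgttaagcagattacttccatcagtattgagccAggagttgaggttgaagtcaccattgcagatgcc
Rpsa (plus strand, chr9:120127689-120132369): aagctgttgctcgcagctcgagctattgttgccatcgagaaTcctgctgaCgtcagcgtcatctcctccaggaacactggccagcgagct
Rpsa-ps10 (minus strand, chr3:150072658-150073542): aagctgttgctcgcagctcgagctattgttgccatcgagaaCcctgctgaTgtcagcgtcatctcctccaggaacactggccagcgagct
Rpl24 (plus strand, chr16:55966275-55971435): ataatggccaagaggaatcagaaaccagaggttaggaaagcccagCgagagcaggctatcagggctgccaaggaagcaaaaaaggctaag
Gm9385 (minus strand, chr9:116040593-116041064): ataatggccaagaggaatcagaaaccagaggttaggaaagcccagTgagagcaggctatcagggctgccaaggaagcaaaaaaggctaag
Rps7 (minus strand, chr12:28630854-28635953): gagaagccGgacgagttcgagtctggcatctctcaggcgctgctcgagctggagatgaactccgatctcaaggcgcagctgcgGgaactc
Gm6472 (minus strand, chrX:152909505-152910155): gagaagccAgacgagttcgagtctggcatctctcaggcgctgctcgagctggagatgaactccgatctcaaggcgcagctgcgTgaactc

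Positions are counted from 1 at the first base of the member's start codon, with the member's base first and the copy's base last. Rpl10a and Rpl10a-ps1 were identical at 649 of 651 aligned bases, and the 2 differences, T2G and G3C, fall in the start codon. Rps20 and Gm4332 differed at 1 of 346 bases (G324A). Rpl24 and Gm9385 differed at 1 of 471 bases, and C313T puts a TGA stop codon in frame in the copy. Rpsa and Rpsa-ps10 differed at 6 of 885 bases, and Rps7 and Gm6472 at 3 of 585. The coding sequences of Rps6 and Rps6-ps4, of Rps27 and Rps27rt and of Rpl38 and Rpl38-ps2 had 0 differences over 750, 255 and 213 bases.

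The 5 libraries differed in more than diet. Their CPM summed to between 832416 and 963615 in the HFD libraries and to 674482 and 841705 in the chow libraries. The best-fitting step between low values implied 23.4 M to 34.97 M reads per HFD library and 18.7 M and 24.6 M per chow library. These depths are rough estimates, since too few low values were whole multiples of 1 read. A set of 5 structured RNAs without a poly(A) tail (Rn7sk, Rpph1, Rmrp, Rn7s1 and Rn7s2) summed to 20791 to 31337 CPM in HFD and to 9.12 and 16.0 CPM in chow libraries, so library type and diet cannot be told apart. The 35 acinar markers are mainly digestive enzyme genes, and none was at 0 in any library. They took 13.4%, 1.82% and 5.40% of the summed CPM in HFD libraries, against 35.4% and 13.4% in chow libraries 1 and 3. At the threshold used below, 1 of the 35 was higher on HFD (Bhlha15) and 2 were lower, beside 14.9% and 8.78% of all genes tested. Ins1 and Ins2 took 7.41%, 9.34% and 7.99% in HFD and 5.50% and 9.62% in chow libraries, so the defining beta cell transcripts were high in all 5 libraries. Of 6 fibroblast markers, none at 0, 5 were lower on HFD, and the list summed to 34.8 to 67.4 CPM in HFD and to 116 and 205 CPM in chow libraries. In such bulk samples fewer cells of a type and less RNA per cell cannot be told apart.

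The 82 members summed to 4847, 4468 and 4392 CPM in the HFD libraries and to 5133 and 4304 CPM in the chow libraries. The means were 4569 ± 244 CPM on HFD (SD, n = 3) and 4719 ± 586 CPM on chow (SD, n = 2), and the HFD values lay inside the chow range. As a share of the summed CPM of a library the members took 0.503%, 0.537% and 0.4995% in HFD, against 0.610% and 0.638% in chow libraries, so the groups stood apart on this scale. The rows of the copies were about as large as the members' own rows, with 4683, 4188 and 4255 CPM in HFD libraries and 5557 and 4797 CPM in chow libraries. All 3 HFD sums of the copies lay below both chow sums. No test was made of these sums.

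**Figure D1:**
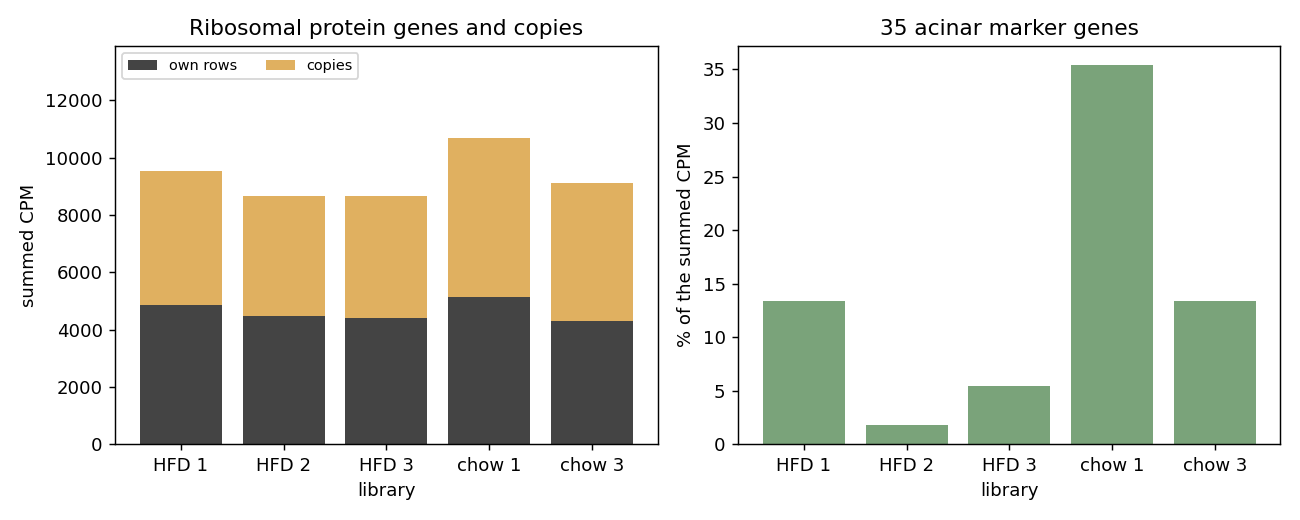
Left, summed CPM of the 82 ribosomal protein genes (dark) with that of their 552 copies stacked on top (light), per library. Right, share of the summed CPM taken by 35 acinar markers, where chow library 1 stands at 35.4% and HFD library 2 at 1.82%.

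Differences between diets were tested gene by gene with limma on log2(CPM + 1), over the 16939 genes that averaged 0.5 CPM or more, with Benjamini-Hochberg adjustment over all of them and a threshold of 0.05. Of the 82 members 78 were tested. On HFD 12 rose, 18 fell and 48 passed no threshold, which is 38.5% of the tested members called, against a background of 23.7% of all genes tested. In 1 direction, 15.4% of the members rose against 14.9% of all genes, and 23.1% fell against 8.78% of all genes. Of the large subunit 8 rose and 11 fell of 47 tested, and of the small subunit 4 rose and 7 fell of 31. The median log2 difference, HFD minus chow, was -0.07 over the members and 0.05 over all genes tested, and 32 members lay within 0.25 of 0.
The HFD and chow libraries did not overlap in 46 of the 78 members, with HFD higher in 16 and lower in 30, against 32.8% of all genes tested higher and 22.5% lower. Chow library 1 was above chow library 3 in 68 of the 78 members, and HFD library 1 above HFD library 2 in 60. The summed CPM of all genes had the same order. It was 841705 and 674482 in chow libraries 1 and 3, and 963615 and 832416 in HFD libraries 1 and 2. The share of all genes in this order was not counted.

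**Figure D2:**
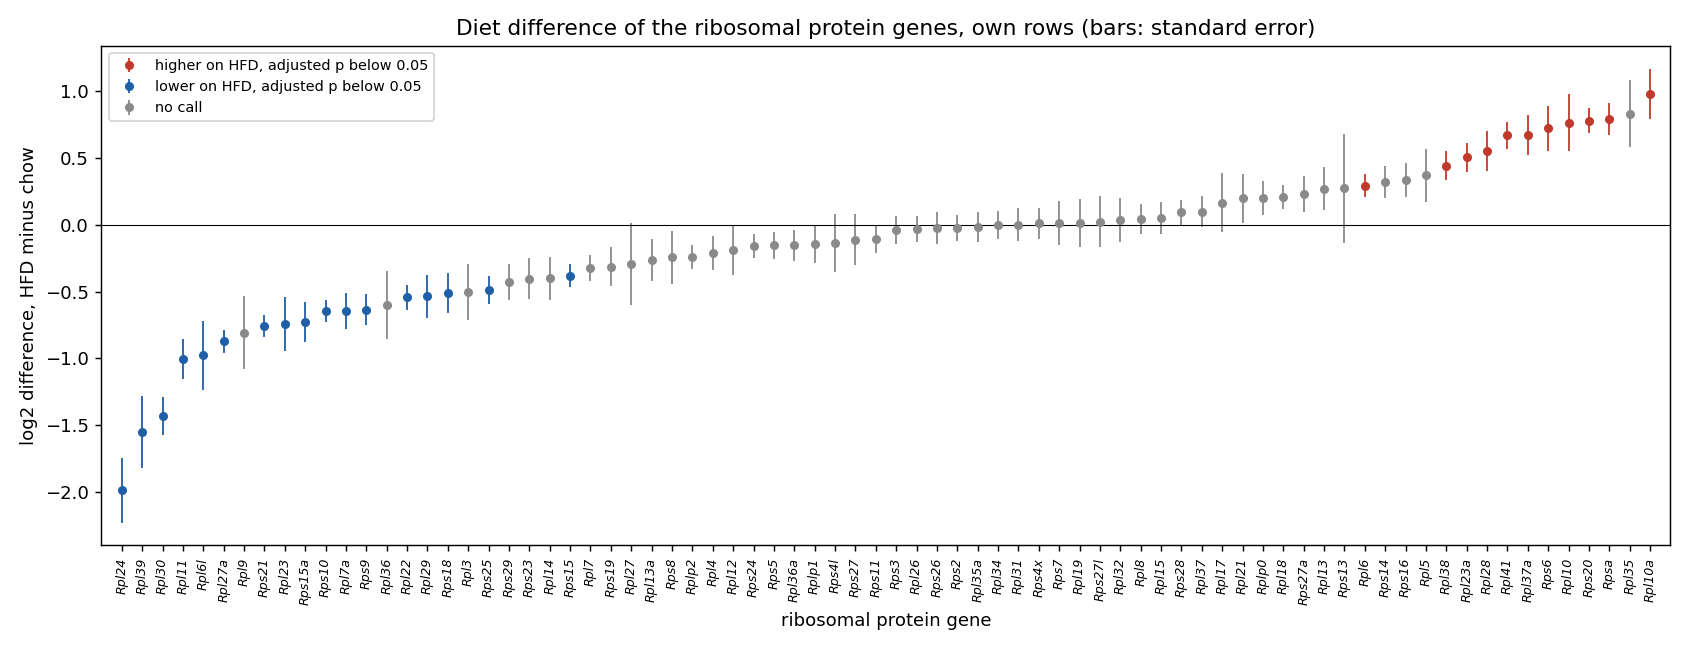
Log2 difference (HFD minus chow, own rows) of 76 of the 78 tested ribosomal protein genes in rising order, with standard errors, 3 HFD against 2 chow libraries. Members run between -1.99 (Rpl24) and 0.98 (Rpl10a), and coloured points passed an adjusted p of 0.05.

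Among the members that fell, Rpl24, a large subunit protein, had the largest difference. It had 4.20, 2.67 and 1.89 CPM in HFD libraries, against 13.9 and 14.3 CPM in chow libraries (log2 difference -1.99 ± 0.24 SE, adjusted p = 0.00247). All HFD values were far below both chow values, but the own row held only 9.07% of the CPM of Rpl24 and its copies. Gm9385, the copy shown above, had 50.9, 45.8 and 47.7 CPM in HFD libraries and 77.6 and 62.8 CPM in chow libraries (log2 difference -0.53, adjusted p = 0.0164). The second copy, Gm12254, had 9.92, 11.5 and 9.37 CPM in HFD and 29.7 and 25.3 CPM in chow libraries (log2 difference -1.34, adjusted p = 0.000821). Parent and copies fell together, and with all of them summed Rpl24 had 61.3 ± 3.22 CPM on HFD (SD, n = 3) and 112 ± 13.2 CPM on chow (SD, n = 2), a log2 difference of -0.85 ± 0.10 (adjusted p = 0.00210).

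Rpl30, which lies at the interface of the subunits, had 10.2, 7.51 and 9.90 CPM in HFD libraries, against 25.9 and 26.6 CPM in chow libraries (log2 difference -1.43 ± 0.14, adjusted p = 0.00104). Its own row held 62.5% of the CPM with its 10 copies, and the sum fell as well (log2 difference -1.07 ± 0.08, adjusted p = 0.000299). Rps21, a small subunit protein that in yeast is needed for late processing of the small subunit RNA, had 49.0, 45.0 and 43.5 CPM in HFD libraries, against 77.5 and 78.5 CPM in chow libraries (log2 difference -0.76 ± 0.08, adjusted p = 0.00172). Its single copy row was at 8.12 to 8.57 CPM in HFD and 18.6 and 20.7 CPM in chow libraries, and the sum fell with a log2 difference of -0.84 ± 0.08 (adjusted p = 0.000917). Rpl24, Rpl30 and Rps21 kept their call in each of 18 alternatives on the own rows and in each of 11 with the copies added, the acinar covariate and every left-out library among them.

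Rpl11 and Rpl5 bind the 5S rRNA before it joins the large subunit, and outside the ribosome both can bind Mdm2, the regulator of p53. Rpl11 had 12.9, 10.4 and 9.71 CPM in HFD libraries, against 25.5 and 20.6 CPM in chow libraries (log2 difference -1.01 ± 0.15, adjusted p = 0.00529). Gm10288, which differs from Rpl11 at 1 of 537 coding bases (G86A), was the larger row, with 83.1, 74.2 and 79.5 CPM in HFD and 132 and 120.2 CPM in chow libraries, and it fell too (adjusted p = 0.00366). The sum with all 6 copies fell with a log2 difference of -0.63 ± 0.10 (adjusted p = 0.00670). Rpl5 had 11.6, 10.8 and 8.68 CPM in HFD libraries and 9.63 and 6.14 CPM in chow libraries, which overlap (adjusted p = 0.214). Its own row was 3.33% of the sum with its copies, and that sum was 258 ± 21.9 CPM on HFD (SD, n = 3) and 317 ± 49.8 CPM on chow (SD, n = 2; adjusted p = 0.160). The pair of 5S partners thus passed the threshold in 1 of 2 members.

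Rpl39, a very small protein of the exit tunnel for the growing chain, had 2.74, 4.88 and 2.05 CPM in HFD libraries, against 10.4 and 11.4 CPM in chow libraries (log2 difference -1.55 ± 0.27, adjusted p = 0.00905). With its 8 copies it fell with a log2 difference of -0.67 ± 0.14 (adjusted p = 0.0179). Rpl23 had 42.4, 28.9 and 33.4 CPM in HFD libraries, against 70.3 and 48.3 CPM in chow libraries, so the nearest HFD and chow values are close (log2 difference -0.74 ± 0.20, adjusted p = 0.0373). Rps15a had 22.1, 21.3 and 17.7 CPM in HFD libraries, against 39.7 and 29.7 CPM in chow libraries (adjusted p = 0.0163). Both also fell with their copies added, with log2 differences of -0.57 and -0.46. The pseudogene-type member Rpl6l had 13.2, 21.2 and 24.8 CPM in HFD libraries, against 45.8 and 32.5 CPM in chow libraries (log2 difference -0.98 ± 0.26, adjusted p = 0.0365), and no copy row of its own. With 1 library left out, Rpl23 lost its call without chow library 1 or HFD library 2 or 3, Rps15a without chow library 1 or HFD library 3, and Rpl6l without chow library 1 or HFD library 1 or 2.

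Rpl27a fell on its own row but did not pass the threshold with its copies. It had 29.0, 27.9 and 26.6 CPM in HFD libraries, against 54.1 and 49.6 CPM in chow libraries (log2 difference -0.87 ± 0.09, adjusted p = 0.001004). The copies of Rpl27a ran the other way, at 104 to 123 CPM in HFD and 88.1 and 97.7 CPM in chow libraries, and the total was 142 ± 8.95 CPM on HFD (SD, n = 3) and 145 ± 9.98 CPM on chow (SD, n = 2). The log2 difference of that total was -0.03 ± 0.10 (adjusted p = 0.856).

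A further 8 members that fell were Rps10, Rpl7a, Rps9, Rpl22, Rpl29, Rps18, Rps25 and Rps15, with log2 differences between -0.64 and -0.38. Among those that fell, 4 members have at least 90% of their CPM in their own row, namely Rpl6l, Rps9, Rpl22 and Rps15. For Rpl6l this does not mean a sequence of its own, since only 15.6% of its 31-base words were unique and members were not taken as copies. Rps9, a small subunit protein, averaged 68.3 ± 6.41 CPM on HFD (SD, n = 3) and 107 ± 13.2 CPM on chow (SD, n = 2; adjusted p = 0.0107), and its 1 annotated copy has no row in the table used here. Rpl22 averaged 41.9 ± 1.09 CPM on HFD and 61.7 ± 7.30 CPM on chow (same n; adjusted p = 0.00934). Rps15, which sits near the decoding centre, averaged 93.3 ± 3.46 CPM on HFD and 122 ± 7.88 CPM on chow (adjusted p = 0.0214). With 1 library left out, Rps15 kept its call only without chow library 3, and Rpl29 lost it whichever library was left out. Rps18 and Rps25 lost theirs without chow library 1 or HFD library 2 or 3, and Rpl7a without chow library 1 or HFD library 2.

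The members that rose included Rpl10a, Rpsa and Rps20, and in all 3 the largest copy fell. Rpl10a had 39.6, 38.5 and 32.7 CPM in HFD libraries, against 22.9 and 14.3 CPM in chow libraries (log2 difference 0.98 ± 0.19, adjusted p = 0.0129). Rpl10a-ps1 had 39.2, 33.3 and 41.9 CPM in HFD libraries, against 78.5 and 68.0 CPM in chow libraries (log2 difference -0.93, adjusted p = 0.00313). The log2 differences of parent and copy had opposite signs and similar sizes, but in CPM the copy fell by more than the parent rose. The sum of Rpl10a and its 2 copies was 75.2 ± 3.39 CPM on HFD (SD, n = 3) and 92.2 ± 13.6 CPM on chow (SD, n = 2), a log2 difference of -0.28 ± 0.11 (adjusted p = 0.0989).

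Rpsa, also known as a receptor for laminin, had 123, 102 and 119 CPM in HFD libraries, against 71.5 and 59.9 CPM in chow libraries (log2 difference 0.79 ± 0.12, adjusted p = 0.00542). Rpsa-ps10 had 42.6, 46.4 and 56.5 CPM in HFD libraries, against 99.8 and 89.9 CPM in chow libraries (log2 difference -0.96, adjusted p = 0.00355). With 10 copies added the log2 difference of Rpsa was 0.10 ± 0.12 (adjusted p = 0.544). Rps20 had 63.2, 59.6 and 64.9 CPM in HFD libraries, against 39.0 and 33.2 CPM in chow libraries (log2 difference 0.78 ± 0.10, adjusted p = 0.00263). Gm4332 had 43.9, 33.5 and 30.8 CPM in HFD libraries, against 80.8 and 66.1 CPM in chow libraries (log2 difference -1.02, adjusted p = 0.00685), and the total of Rps20 gave -0.15 ± 0.11 (adjusted p = 0.375). With their copies added, Rpl10a, Rpsa and Rps20 did not pass the threshold.

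**Figure D3:**
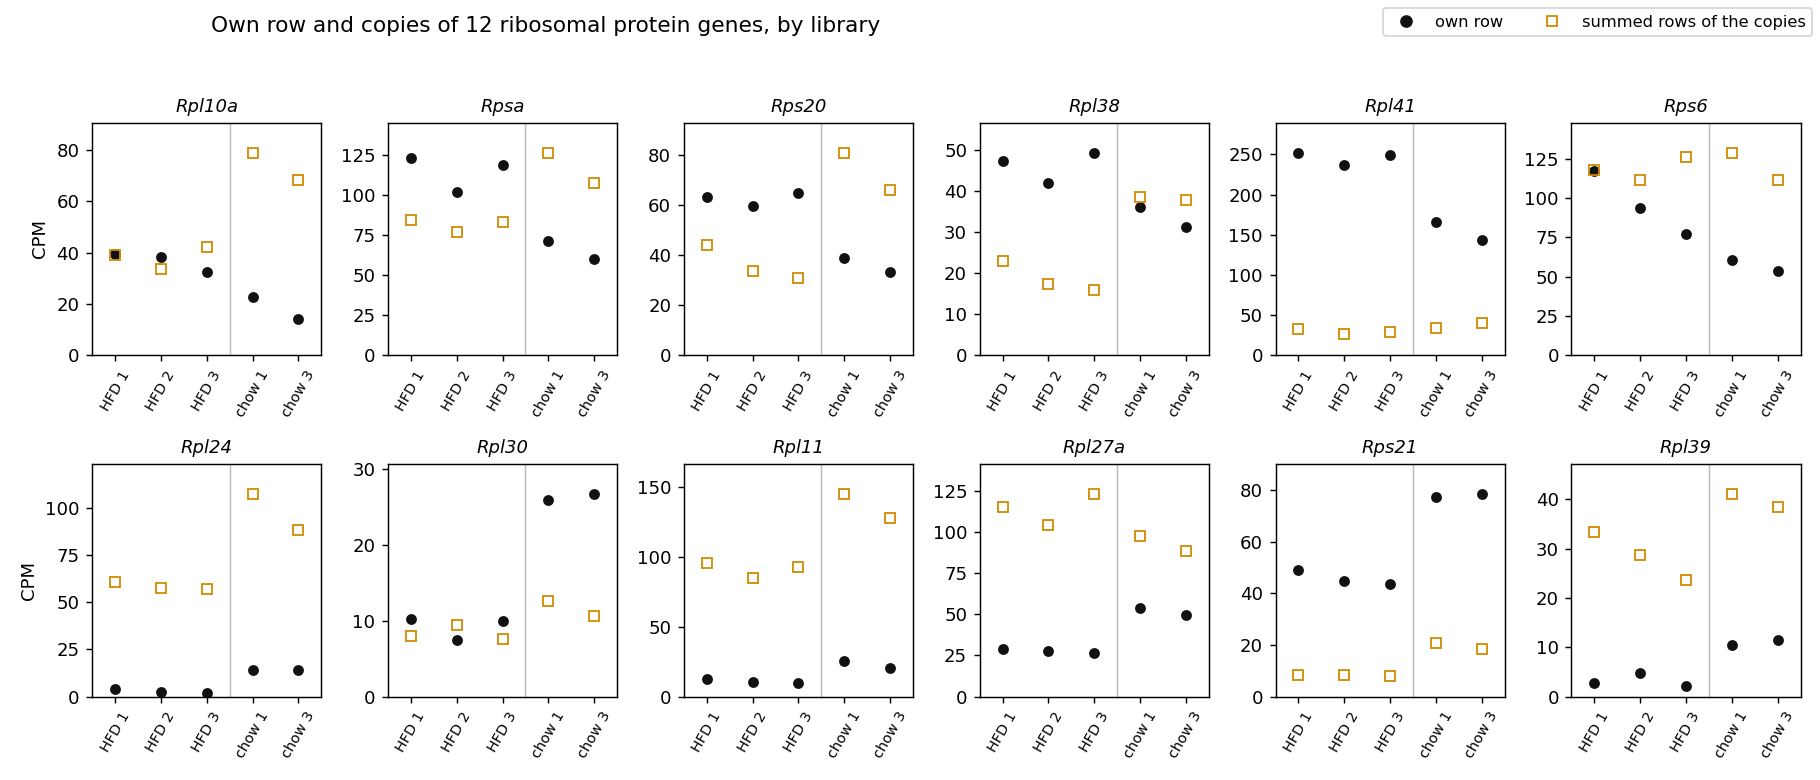
CPM of the own row (filled circles) and of the summed copies (open squares) of 12 ribosomal protein genes in each library, HFD libraries left of the grey line and chow libraries right of it, with axes starting at 0. In the panels of Rpl10a, Rpsa, Rps20, Rpl38 and Rpl41 the own rows are higher and the copies lower on HFD. In those of Rpl24, Rpl30, Rpl11, Rps21 and Rpl39 both are lower.

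Rps6, the small subunit protein that S6 kinases phosphorylate, had 117, 93.5 and 77.3 CPM in HFD libraries, against 60.7 and 53.3 CPM in chow libraries (log2 difference 0.72 ± 0.17, adjusted p = 0.0240). Its identical copy Rps6-ps4 had 116, 109 and 124 CPM in HFD and 126 and 109 CPM in chow libraries, which overlap, and the total of Rps6 was 214 ± 17.3 CPM on HFD (SD, n = 3) and 177 ± 17.1 CPM on chow (SD, n = 2; adjusted p = 0.118). Rpl10 had 21.8, 33.5 and 20.6 CPM in HFD libraries, against 15.9 and 12.6 CPM in chow libraries (log2 difference 0.76 ± 0.21, adjusted p = 0.0418). Its own row was 6.66% of the sum with its copies, which gave a log2 difference of 0.03 ± 0.12. The copy Rpl10-ps1 was listed at 0.00376, 0.00559 and 0.00004 CPM in HFD libraries and at 34.9 and 30.4 CPM in chow libraries. The HFD values are below the 0.0286 to 0.0427 CPM that 1 read was estimated to be worth there. Rpl28 had 53.9, 47.7 and 55.6 CPM in HFD libraries, against 42.0 and 29.8 CPM in chow libraries (adjusted p = 0.0381). Rpl23a, a docking site at the tunnel exit, had 27.0, 26.2 and 22.2 CPM in HFD libraries, against 17.6 and 17.1 CPM in chow libraries (adjusted p = 0.0187). Neither passed the threshold with the copies added, nor did Rpl38 and Rpl6, which rose with log2 differences of 0.44 and 0.29 on the own rows. With library size taken without acinar and insulin genes, the own rows of Rpl23a, Rpl28, Rpl38 and Rpl6 were lower on HFD, at log2 differences of -0.04, -0.0067, -0.11 and -0.27. Of the members that rose, Rps6 lost its call without HFD library 2 or either chow library, and Rpl10 lost its call whichever library was left out. Rpl28 and Rpl6 kept theirs only without chow library 1, Rpl23a only without HFD library 3 or chow library 3, and Rpl38 only without HFD library 2 or chow library 1.

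Rpl41 and Rpl37a rose on the own rows and in the sums, but without acinar and insulin genes in the library size the sums had log2 differences of -0.047 and -0.26. Rpl41, the smallest protein of the ribosome, had 252, 237 and 249.6 CPM in HFD libraries, against 166 and 144 CPM in chow libraries (log2 difference 0.67 ± 0.10, adjusted p = 0.00562). Its own row held 86.6% of the CPM with its copies, and the total was 275 ± 10.5 CPM on HFD (SD, n = 3) and 192 ± 11.6 CPM on chow (SD, n = 2; log2 difference 0.52 ± 0.10, adjusted p = 0.0120). Rpl37a had 47.3, 52.8 and 51.3 CPM in HFD libraries, against 37.4 and 26.0 CPM in chow libraries (log2 difference 0.67 ± 0.15, adjusted p = 0.0208), and the total gave 0.30 ± 0.09 (adjusted p = 0.0490). Among the copies of Rpl37a, Gm11285 alone had 34.8, 26.4 and 28.0 CPM in HFD libraries, against 6.10 and 7.09 CPM in chow libraries.

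With the copies of every member added, an alternative chosen after the data had been seen, 79 members were tested, 3 rose and 23 fell. The background in that fit was 15.0% of all genes higher, 8.60% lower and 23.6% called. The median log2 difference was -0.16, and 62 of the 79 members had a negative and 17 a positive one. Of the 12 members that rose on their own rows 2 kept the call, 10 lost it and 5 of these turned negative, Rpl10a, Rps20, Rpl38 and Rpl23a among them. The copies summed to a lower mean on HFD in 10 of those 12, and in 13 of the 16 members with copies that fell on their own rows. The largest copy was called lower in 5 of those 12 and in 27 of all 78 tested members, so lower copies were not particular to the members that rose. Of the 18 that fell 14 kept the call, and Rpl27a, Rpl29 and Rps25 were among the 4 that lost it. A further 9 members fell once the copies were added, namely Rpl9, Rpl36, Rps29, Rpl27, Rpl36a, Rplp1, Rpl19, Rpl17 and Rpl21, and Rps12 rose. Without single libraries, 7 of the 23 lower calls and 0 of the 3 higher calls held throughout. The largest of these differences was that of Rpl21, at 8.27 ± 1.76 CPM on HFD (SD, n = 3) and 21.2 ± 2.87 CPM on chow (SD, n = 2; log2 difference -1.27 ± 0.17, adjusted p = 0.00374). Rpl19 with its copies averaged 148 ± 9.44 CPM on HFD and 213 ± 7.16 CPM on chow (same n; adjusted p = 0.00980).

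**Figure D4:**
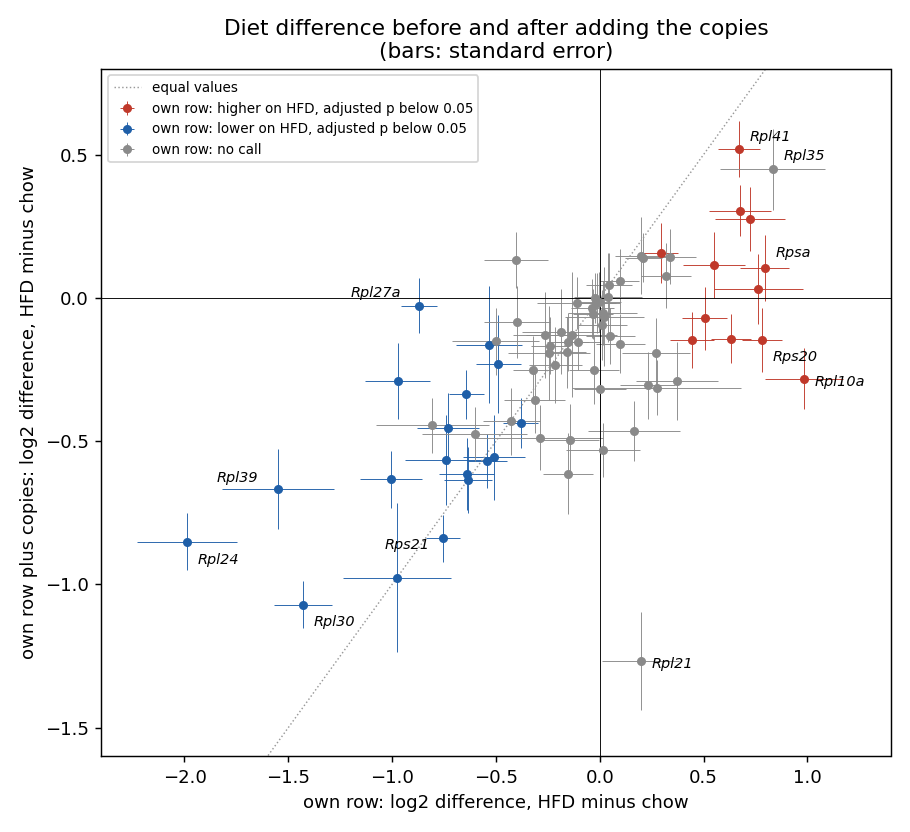
Log2 difference (HFD minus chow) of the own row (x axis) and of the own row plus copies (y axis) for the 78 members tested in both, with standard errors, coloured by the call of the own row. Rpl10a, at 0.98 on its own row, stands at -0.28 with its copies, and Rpl24 stays negative at -1.99 and -0.85.

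On their own, 150 copies passed the filter, of which 16 rose and 58 fell, with a median log2 difference of -0.31. Over all genes tested 14.9% rose and 8.78% fell, and every count of calls in this paragraph stands beside those shares. Most of the 552 copies were faint, and 423 of them had a mean under 1 CPM. In 14 members both the own row and its largest copy were called, in the same direction in 9 and in opposite directions in 5. Members were also set apart by the share of 31-base words of their coding sequence found in no other gene. The 16 tested members with at least 20% unique words had a median absolute log2 difference of 0.18, with 0 higher and 4 lower. The 32 members with some unique words below 20% had 0.44, with 4 higher and 11 lower, and the 30 members with no unique word had 0.39, with 8 higher and 3 lower. Of the 11 members whose own row held at least 90% of their sum, 0 rose and 4 fell, with Rpl6l, at 15.6% unique words, among the 4. Of the 28 tested members with an annotated small nucleolar RNA gene inside them 5 rose and 6 fell, and of the 50 without one 7 rose and 12 fell.

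The 5 most abundant members without a call were Rpl4, Rplp0, Rps4x, Rpl8 and Rps3. Rpl4 had 430.01, 393 and 388 CPM in HFD libraries, against 504 and 433 CPM in chow libraries (adjusted p = 0.262). Rplp0, the base of the acidic stalk that recruits translation factors, had 279, 273 and 267 CPM in HFD libraries and 269 and 209.96 CPM in chow libraries, which overlap (adjusted p = 0.290). Rps4x had 232, 221 and 209 CPM in HFD libraries and 242 and 197 CPM in chow libraries (adjusted p = 0.955). Rpl8 had 232, 211 and 205 CPM in HFD libraries and 225 and 194 CPM in chow libraries (adjusted p = 0.794). Rps3, which lines the entry of the mRNA channel, had 163, 147 and 141 CPM in HFD libraries and 163 and 145 CPM in chow libraries (adjusted p = 0.820). Rpl8 and Rps3 have no copy by the definition used here, and their HFD and chow values overlapped.

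Of the other stalk proteins, Rplp1 had 84.1, 71.5 and 59.8 CPM in HFD libraries and 81.4 and 75.9 CPM in chow libraries (adjusted p = 0.489), and Rplp2 had 63.5, 59.9 and 57.6 CPM in HFD libraries, against 76.2 and 67.0 CPM in chow libraries (adjusted p = 0.0985). None of the 3 stalk members was called on its own row. Rps27a, made as a fusion with ubiquitin, had 50.8, 43.3 and 41.6 CPM in HFD libraries and 43.3 and 33.8 CPM in chow libraries (adjusted p = 0.248). Rps19, the member most often mutated in human Diamond-Blackfan anaemia, had 30.8, 25.4 and 24.3 CPM in HFD libraries and 38.1 and 29.2 CPM in chow libraries (adjusted p = 0.162). By place in the ribosome, 1 rose and 1 fell of 7 members around the tunnel exit, 0 of 4 at the mRNA entry and exit were called, and 1 of 2 near the decoding centre fell, beside the 23.7% of all genes called. With the copies added, 0 rose and 3 fell around the tunnel exit. These groups are too small to set against that share.

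Per kilobase of coding length, own rows ran from 2.25 CPM for Rps7 to 2686 CPM for Rpl41 among the tested members, whereas a ribosome holds its proteins in nearly equal numbers. Rps7 itself had 1.63, 1.24 and 1.12 CPM in HFD libraries and 1.41 and 1.19 CPM in chow libraries, while its copy Gm6472 had 122, 117 and 124 CPM in HFD and 136 and 105 CPM in chow libraries. Likewise Rps27 averaged 1.28 CPM on HFD and 1.48 CPM on chow, and its identical copy Rps27rt had 138, 130.4 and 121 CPM in HFD and 132 and 131 CPM in chow libraries. With the copies added, Rps7 stood at 244 CPM per kilobase and Rps27 at 517, beside a median of 234 over the tested members, but Rpl41 stood at 3100. The coding sequence of Rpl41 takes only 78 of the 544 bases of its transcript, which by construction raises its value per coding kilobase. In 38 of the 82 members the own row was under 50% of the sum of own row and copies. The 4 members with at least 30 copies (Rpl21, Rpl29, Rpl7a and Rps2) stayed between 14.9 and 31.7 CPM per kilobase even with the copies added.

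The other 4 members were below the filter. Rps12 was listed at 0 in every library, but its 22 copies summed to 73.3, 59.0 and 59.8 CPM in HFD libraries, against 51.0 and 43.4 CPM in chow libraries (log2 difference of the sum 0.43 ± 0.12, adjusted p = 0.0446). Rps12-ps4 alone had 18.3, 12.98 and 18.4 CPM in HFD libraries, against 1.32 and 1.12 CPM in chow libraries (log2 difference 2.97, adjusted p = 9.37e-05). Rpl10l, which in mouse replaces Rpl10 in male germ cells, was at 0, 0 and 0.0567 CPM in HFD libraries and at 0.107 and 0 CPM in chow libraries. Rpl3l, found in heart and skeletal muscle, was at 0, 0.171 and 0.170 CPM in HFD libraries and at 0 and 0.122 CPM in chow libraries. Rpl39l, known from the testis, was at 0, 0.0285 and 0 CPM in HFD libraries and at 0 and 0.0152 CPM in chow libraries. These tissue-restricted paralogues were thus at or near 0 in islets of both diets.

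Ratios of a paralogue to its ubiquitous partner were tested by exact permutation over libraries, two-sided, in which 3 against 2 cannot go below 0.2. Rpl22l1 over Rpl22 was 0.272, 0.2501 and 0.198 in HFD libraries, against 0.516 and 0.411 in chow libraries (exact p = 0.2, adjusted over 5 pairs 0.333), lower in 3 of 3 HFD libraries. Rpl36al over Rpl36a was 2.06, 1.61 and 1.405 in HFD libraries, against 2.96 and 2.66 in chow libraries, and Rpl7l1 over Rpl7 was 0.301, 0.311 and 0.307 in HFD libraries, against 0.191 and 0.267 in chow libraries. Both stood apart between the diets at the same smallest exact p. With the copies of Rpl36a added, Rpl36al over Rpl36a was 0.935, 0.813 and 0.696 in HFD libraries, against 0.972 and 0.989 in chow libraries. The log2 difference was then -0.28 in place of -0.75. Copies were defined for the members only, so none were added to Rpl36al. Rps27l, a p53-responsive paralogue, had 20.6, 19.0 and 15.8 CPM in HFD libraries and 22.4 and 14.5 CPM in chow libraries, and its ratio to Rps27 overlapped between the diets. So did the ratio of Rps4l to Rps4x, with Rps4l at 15.1, 23.8 and 16.7 CPM in HFD and 16.6 and 24.2 CPM in chow libraries.

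Ribosomal protein genes, and related genes such as Rps19bp1, whose names the rule does not take gave 3 higher and 2 lower of 10 tested. Over all genes tested 14.9% rose and 8.78% fell. No copies were defined for these genes, so the values are those of their own rows. Fau, which encodes the small subunit protein eS30 as a ubiquitin-like fusion, had 50.3, 53.8 and 50.2 CPM in HFD libraries, against 5.66 and 6.02 CPM in chow libraries (log2 difference 2.94 ± 0.09, adjusted p = 2.2e-06). Rpl22l1 had 11.7, 10.5 and 8.06 CPM in HFD libraries, against 34.5 and 23.2 CPM in chow libraries (log2 difference -1.42 ± 0.20, adjusted p = 0.00462). Rps3a3 had 3.82, 7.64 and 10.5 CPM in HFD and 0.0403 and 0.868 CPM in chow libraries, and Rpl36al had 26.8, 16.9 and 16.9 CPM in HFD and 39.7 and 34.7 CPM in chow libraries.

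Other mRNAs with a TOP start gave 2 higher and 7 lower of 25 tested, with a median log2 difference of -0.21, beside 14.9% higher and 8.78% lower over all genes tested. The 4 with the smallest p fell. The histone chaperone gene Nap1l1 averaged 32.4 ± 1.46 CPM on HFD (SD, n = 3) and 69.4 ± 3.74 CPM on chow (SD, n = 2; adjusted p = 0.000316). Gas5, a noncoding host of small nucleolar RNAs, averaged 9.52 ± 0.265 CPM on HFD and 21.7 ± 0.619 CPM on chow (same n; adjusted p = 0.000541). Npm1, a nucleolar chaperone, and Eif3e, a subunit of an initiation factor, fell with log2 differences of -0.68 and -0.63 (adjusted p = 0.00765 for each). At the annotated start of the gene, a C followed by at least 4 further C or T bases began within 5 bases in 27 of the 60 members with a RefSeq promoter (45%) and in 18.46% of 27025 promoters. The letters CCGGAAG, searched on both strands over 250 bases before to 50 after the start, were in 40% of the members' promoters and in 9.121% of all. The start of Rps6 is shown as an example of the tract, 5′ to 3′ on GRCm38.p6 with the tract in capitals and the annotated start at its first base.
Rps6 (minus strand, chr4:86857343-86857397): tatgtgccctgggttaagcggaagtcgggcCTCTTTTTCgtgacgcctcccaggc

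Of 60 ribosome synthesis genes 3 rose and 6 fell, with a median log2 difference of 0.06. Ncl, the nucleolar protein nucleolin, averaged 144 ± 4.74 CPM on HFD (SD, n = 3) and 211 ± 7.001 CPM on chow (SD, n = 2; adjusted p = 0.00648). Utp3 and Nop58, both needed for processing of the small subunit rRNA, fell with log2 differences of -0.50 and -0.32, and Rrp12 rose with 0.75 (adjusted p = 0.0342). Among 20 tested genes of mTORC1 and TOP control 5 rose and 4 fell. Ssb, the La protein, had 34.9, 35.1 and 35.4 CPM in HFD libraries, against 55.3 and 54.5 CPM in chow libraries (log2 difference -0.63 ± 0.07, adjusted p = 0.00212). Cnbp fell with a log2 difference of -0.43, and the scaffold Eif4g1 rose with 0.51. Larp1b had 121, 48.5 and 80.8 CPM in HFD libraries, against 23.7 and 20.1 CPM in chow libraries (log2 difference 1.79 ± 0.33, adjusted p = 0.0115). Of 15 genes of ribosome quality control and rescue 5 rose and 0 fell, led by Gcn1l1, Pelo, Ascc2 and Usp10 with log2 differences of 0.49, 0.59, 0.42 and 0.37. Over all genes tested 14.9% rose and 8.78% fell, and each list was chosen by hand.

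The calls moved with how the libraries were put on one scale. With the acinar score as a covariate 8 members rose and 8 fell, which were 16 of the 30 calls made without it. In that fit 962 of all 16939 genes rose and 595 fell. With library size taken without acinar and insulin genes 0 members rose and 53 fell, beside 770 and 9209 of all 16939 genes. The median log2 difference was then -0.43 over all genes tested and -0.60 over the members. The part of the acinar markers in any single member was not tested beyond this covariate, and that of the fibroblast markers was not tested. Median-ratio scaling gave 8 members higher and 20 lower, beside 2118 and 1874 of all genes. The trimmed mean of M values gave 8 and 19, beside 2136 and 1843 of all genes. Scaling to the members' own mean gave 12 and 11, beside 2062 and 785 of all genes. That last scale brings the members' mean log2 difference close to 0 by construction, so its split is no separate check. Without chow library 1, which had the highest acinar share, 10 members rose and 10 fell, and without chow library 3, 7 rose and 23 fell. Without HFD library 2, which had the lowest acinar share, 5 rose and 11 fell, and without HFD library 1, 7 rose and 16 fell. In these fits without 1 library calls that held throughout included those of Rpl24, Rpl39, Rpl30, Rpl11, Rpl27a, Rps21, Rps10, Rps9, Rpl22, Rpsa, Rps20 and Rpl41. That of Rpl10a was lost without HFD library 2, and that of Rpl37a without HFD library 2 or 3.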

How the data were processed

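RNA extracted with Trizol from isolated islets was sequenced, per the labels' protocols. The deposited CPM values were made by the authors with Partek, per the submitters' processing notes. The version, aligner, genome build, annotation, counting rule, strand setting and library preparation were not given in the sources used. The header names no unit, and the lowest value of each column is exactly 1, so values were read as CPM plus 1. Too few low values were whole multiples of 1 read for a count model. A count of 0 allows up to 3 reads, or 0.0858 to 0.160 CPM at the estimated depth of each library, for counting error only.

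Tests used limma 3.58.1 in R 4.3.3 with a variance trend on log2(CPM + 1), which understates the change of low genes, over genes averaging 0.5 CPM or more, with Benjamini-Hochberg adjustment. The code was tested on simulated data. Replicate numbers follow deposit order. Members, lists and tests were chosen with earlier results of these data known, and the copies were defined after seeing the data. Lists are described by counts and medians. Values in every library are given for the 10 called members with the highest and the 10 with the lowest signed log2 difference, the 5 most abundant members without a call, and stalk, 5S, paralogue and below-filter members, and of each list the 4 genes with the smallest p are named, but a few genes are not reported here. Rps9, Rpl22, Rps15, Rps7, Rps27 and the copies were named after their values were seen. All 82 members matched GENCODE M21 by symbol, and 60 have a RefSeq promoter sequence.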

Additional observations from a re-analysis of the deposited data

How the results depend on the processing

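No paired analysis was possible because replicate numbers only follow deposit order and mark no shared animal, litter or day. Against 12 members higher and 18 lower, fitting every gene without a filter gave 4 and 8, and library size without acinar and insulin genes gave 0 and 53. Named pseudogene rows added gave 6 higher, and all copies added gave 3. Scaling to the members' mean, which by construction brings their mean log2 difference close to 0, gave 11 lower, and the acinar covariate 8. Leaving out 1 library gave between 5 and 10 higher and between 10 and 23 lower.

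Over all genes, against 2524 higher and 1487 lower, the counts were 1080 and 573 without a filter, 770 and 9209 without acinar and insulin genes, 4224 and 2828 with all 6 columns and 962 and 595 with the acinar covariate. Removing length and GC trends gave 1523 higher, and scaling to the members' mean 785 lower. Leaving out 1 library gave between 1167 and 2969 higher and between 682 and 1415 lower.

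With the copies added, against 3 higher and 23 lower, median-ratio scaling and the trimmed mean of M values gave 1 higher each, and library size without acinar and insulin genes 0 higher and 75 lower. Scaling to the members' mean and the acinar covariate gave 5 members lower each, beside 676 and 572 of all genes. Leaving out 1 library gave between 0 and 3 higher and between 9 and 30 lower.

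Without acinar and insulin genes in the library size, the median log2 difference was -0.60 over the members, -0.72 with copies and -0.43 over all genes. With copies and libraries scaled to the members' mean it was 0.058 over the members, on a scale that brings their mean difference close to 0 by construction. The log2 ratio of summed CPM, HFD over chow, was -0.28 as a share of all CPM and -0.62 without acinar and insulin genes, against -0.05 as deposited, and ran between -0.17 and 0.086 with 1 library left out.

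Directions turned round for Rpl10a (-0.28 with either set of copies), Rpl23a (-0.072), Rpl38 (-0.15, and -0.072 with named pseudogenes), and Rps20 (-0.15) once copies were added. Without acinar and insulin genes they turned round for Rpl23a (-0.038), Rpl28 (-0.0067), Rpl38 (-0.11) and Rpl6 (-0.27), and with copies added also for Rpl37a (-0.26), Rpl41 (-0.047) and Rps12 (-0.13). The log2 ratio of Rps27l over Rps27 was -0.049 with copies added, and between -0.44 and 0.86 with 1 library left out. That of Rps4l over Rps4x ran between -0.57 and 0.26. The cause of these shifts was not tested, apart from what each alternative changes by construction. On their own rows 10 of the 18 members that fell and 4 of the 12 that rose kept their call without each library in turn, and with copies added 7 of 23 and 0 of 3 did. Depth limits the faint members, since 7 tested members average under 5 CPM.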
